A study of Mus musculus with 7 samples.

Results

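The nuclear genes of oxidative phosphorylation are described here in injured mouse retinas that had received a control vector or a vector carrying Tppp3. Members were taken by symbol, as every gene named for complex I (Nduf), complex II (Sdha to Sdhd), complex III (Uqcr), the nuclear subunits 4 to 8 of complex IV (Cox) or complex V (Atp5), and 1 name marked as a pseudogene was left out. This gave 96 of 25655 genes, of which 38 belonged to complex I, 8 were assembly factors of complex I, 4 belonged to complex II, 8 to complex III, 20 to complex IV and 18 to complex V. Ndufa4 and Ndufa4l2, named for complex I, were placed with complex IV, where the Ndufa4 protein is now assigned, and Cox7a2l, which helps to join complexes III and IV into supercomplexes, was placed there too. Counts were present for 93 members, 91 had a count in every library, and 90 passed the filter on low counts and were tested.

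The study asked which gene expression changes accompany axon regeneration and retinal ganglion cell survival after Tppp3, a tubulin-binding protein of the TPPP family, is overexpressed in the injured eye. Poly(A)-selected RNA was sequenced from whole retinas of wildtype C57BL/6 mice, all taken 2 days after crush of the optic nerve. The control group (3 libraries) had received CMV-control-AAV2 and the other group (3 libraries) the Tppp3 overexpression AAV2, so that both groups carried an adeno-associated vector and a nerve injury and no uninjured or untreated retina was compared. The promoter of the Tppp3 vector, the interval between vector and crush, the age of the mice and whether each library came from a different animal were not given in the sources used here, and p-values therefore measure only the spread between these libraries. Control libraries held 10961443 to 16218074 counts and Tppp3 libraries 19961359 to 21843892, so every control library was the shallower. Tppp3 itself, the check of the labels, was at 18.7, 22.2 and 28.02 CPM (counts relative to the library total, scaled by TMM factors) in control 1, 2 and 3 and at 53.7, 36.5 and 41.8 CPM in Tppp3 1, 2 and 3. It was higher in every Tppp3 library, by 0.94 ± 0.20 (SE) on the log2 scale, with an adjusted p of 0.639 in edgeR and 2.2e-05 in DESeq2.

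Oxidative phosphorylation is the step at which mitochondria turn the energy of nutrients into ATP. Complexes I and II pass electrons from NADH and succinate to ubiquinone, complex III passes them on to cytochrome c, and complex IV hands them to oxygen. Complexes I, III and IV pump protons across the inner membrane, and complex V, the ATP synthase, lets them back to make ATP. Most subunits are encoded in the nucleus, while a small core of complexes I, III, IV and V is encoded by the mitochondrial genome. The retina is among the tissues with the highest demand for oxygen, and photoreceptor inner segments are packed with mitochondria.

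Many of these genes share promoter motifs of factors known to drive nuclear mitochondrial genes, and 5 windows are shown to make those motifs visible. RefSeq promoter windows (build GRCm38.p6, 250 bases before to 50 after a start) were matched for 76 of the 96 members, 81 windows in all. They were searched on both strands for a core of 10 bases of the NRF1 motif, which is its own reverse complement and is spelled in capitals in the Atp5g2 window, for CCGGAAG, a core bound by ETS factors such as GABP, and for GCCATNTT, a core of the YY1 motif, and a window could hold more than 1 of them. The NRF1 core was in 7 member windows (8.64%), against 0.971% of all 32851 windows and 1.86% of the 14209 windows of genes with a mean of at least 1 CPM here. The ETS core was in 19 (23.5%), against 8.86% and 15.7%, and the YY1 core in 19 (23.5%), against 6.05% and 7.54%. At least 1 of the 3 was in 40 member windows (49.4%), against 14.8% and 23.0%. Of the YY1 matches, 12 lay in the 35 windows of complex I genes (34.3%) and 1 in the 14 windows of complex IV genes (7.14%).

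The windows below give the 250 bases before the start on the minus strand, read 5′ to 3′ in the direction of the gene, with the matched motif in capitals. Cox6a1 (chr5:115348959-115349208) carried an NRF1 core beginning 162 bases before the start and an ETS core on the opposite strand at 16. Atp5g2 (chr15:102671048-102671297) carried an NRF1 core at 42, and Ndufs8 (chr19:3912775-3913024) a YY1 core on the opposite strand at 165. Cox6b1 (chr7:30626115-30626364), the common form of its subunit, carried an ETS core on the opposite strand at 28, while Cox6b2 (chr7:4753095-4753344), the tissue-restricted form, held none of these letters. In the full promoter windows, the common or only forms Cox5a, Cox5b, Cox7a2, Cox7c and Ndufa4 also held none of these cores. So did the restricted forms Cox7a1, Cox7b2 and Cox8b, while Cox6a1, Cox6b1, Cox7b and Cox8a held at least 1. In all, 4 of 14 complex IV windows (28.6%) held any core, against 23.0% for genes with a mean of at least 1 CPM. The windows shown were chosen after the matches were seen, and a match shows only that these letters are present.
Cox6a1: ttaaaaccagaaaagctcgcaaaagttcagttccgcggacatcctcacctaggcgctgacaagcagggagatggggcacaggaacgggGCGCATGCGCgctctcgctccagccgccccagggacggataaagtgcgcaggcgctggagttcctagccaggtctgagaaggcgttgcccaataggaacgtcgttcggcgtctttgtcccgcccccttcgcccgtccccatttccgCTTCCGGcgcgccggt
Atp5g2: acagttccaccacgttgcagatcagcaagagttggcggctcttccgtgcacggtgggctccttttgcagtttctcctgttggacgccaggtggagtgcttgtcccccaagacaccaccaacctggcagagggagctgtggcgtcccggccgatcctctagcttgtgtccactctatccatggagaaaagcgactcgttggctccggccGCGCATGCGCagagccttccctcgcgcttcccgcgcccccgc
Ndufs8: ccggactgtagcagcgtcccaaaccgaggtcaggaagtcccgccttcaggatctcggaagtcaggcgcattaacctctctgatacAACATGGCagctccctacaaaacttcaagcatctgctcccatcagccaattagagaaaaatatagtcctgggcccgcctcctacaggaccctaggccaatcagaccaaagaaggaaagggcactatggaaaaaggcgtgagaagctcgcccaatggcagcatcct
Cox6b1: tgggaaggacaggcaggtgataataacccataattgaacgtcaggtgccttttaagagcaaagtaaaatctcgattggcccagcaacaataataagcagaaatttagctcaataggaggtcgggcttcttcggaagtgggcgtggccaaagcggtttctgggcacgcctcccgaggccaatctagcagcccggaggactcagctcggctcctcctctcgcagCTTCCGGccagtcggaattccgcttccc
Cox6b2: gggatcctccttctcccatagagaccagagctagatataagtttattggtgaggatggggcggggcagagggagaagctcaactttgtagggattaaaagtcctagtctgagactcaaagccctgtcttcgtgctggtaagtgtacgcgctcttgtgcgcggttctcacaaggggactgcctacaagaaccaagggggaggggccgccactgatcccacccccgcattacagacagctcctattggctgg

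Transcripts for the oxidative machinery were abundant in both groups and differed little between them. Members took 0.655, 0.641 and 0.663% of all counts in control 1, 2 and 3 and 0.629, 0.632 and 0.622% in Tppp3 1, 2 and 3. Their summed level was 6503 ± 99.6 CPM in control and 6307 ± 81.0 CPM in Tppp3 libraries (SD, n = 3), a difference of -3.03%, with the highest Tppp3 library (6383 CPM) just under the lowest control library (6389 CPM). In whole tissue, fewer cells of a type and less RNA per cell cannot be told apart.

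No member was called. In edgeR's quasi-likelihood test over 14750 genes, 0 of 90 members passed an adjusted p of 0.05 in either direction, where 0.0136% of all genes were called lower and 0% higher. The 2 genes called lower, Fn1 (log2 fold change -0.61, adjusted p = 0.0138) and Krt7 (log2 fold change -0.95, adjusted p = 0.032), are named outside the rule for named genes. The smallest adjusted p of a member was 0.639, and limma's voom, which called 0 genes in all, and DESeq2, which called 0.0144% of genes higher and 0.0862% lower, also called 0 members. At an unadjusted p of 0.05, edgeR put 9 members lower and 1 higher, beside 3.55% and 3.67% of all tested genes.

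The size of any difference was limited closely for most members. The 95% interval of the fold change lay within 1.2-fold in either direction for 54 of 90 members, against 40.0% of all tested genes, and within 1.4-fold for 85, against 69.6%. Members were measured with a median within-group coefficient of variation of 4.93%.

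Most members nevertheless sat slightly lower in the Tppp3 libraries. Log2 fold changes were negative for 67 of 90 members, with a median of -0.067, against 49.1% negative and a median of 0.0030 over all tested genes. All 3 Tppp3 libraries lay below all 3 control libraries for 22 members (24.4%), where 7.02% of all tested genes did so. They lay above for 3 members (3.33%), Ndufb2, Ndufaf7 and Sdhb, where 6.92% of all tested genes did so. After a linear correction for transcript GC content and length the median was -0.019, with 50 of 89 members negative, against -0.0022 over all genes.

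**Figure D1:**
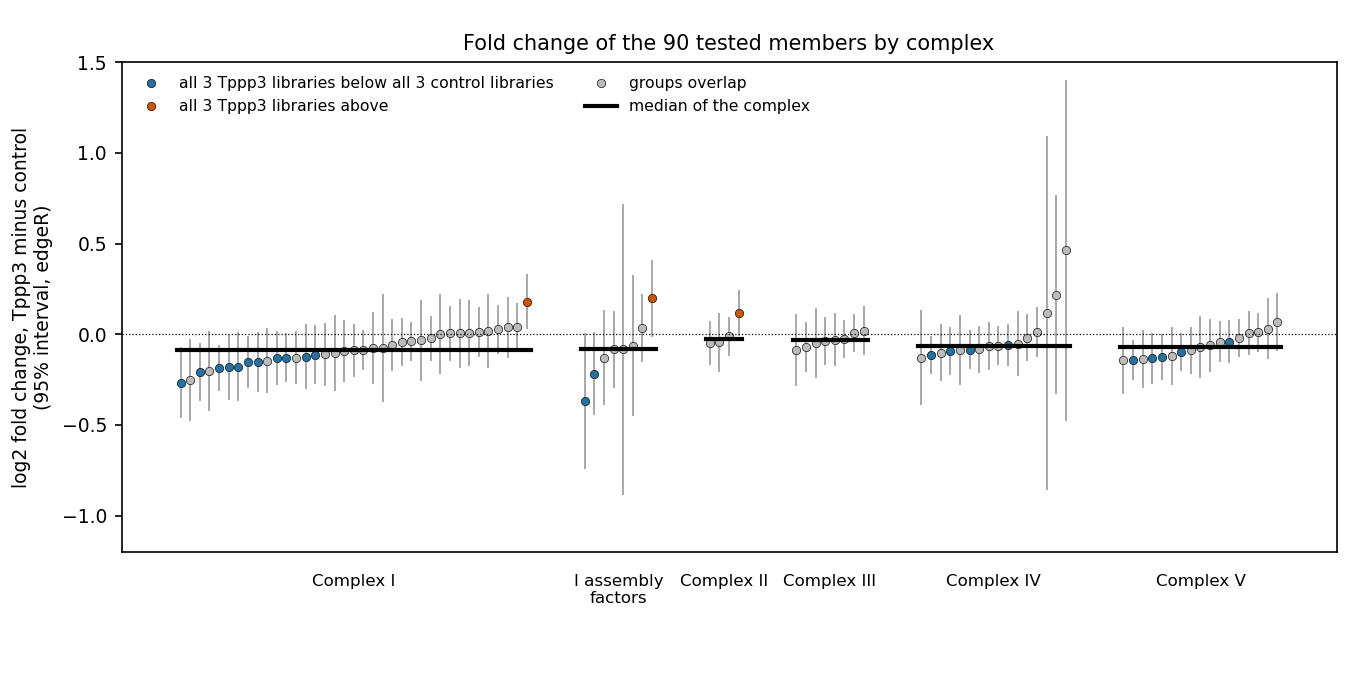
Log2 fold change (vertical axis, Tppp3 minus control, edgeR) of the 90 tested members, ordered within each complex along the horizontal axis. Bars are 95% intervals, black lines are medians, blue points mark the 22 members whose Tppp3 libraries all lay below the control libraries and orange points the 3 whose Tppp3 libraries all lay above. Most points lie between -0.3 and 0.2, and the widest intervals belong to low-count forms of complex IV and to Ndufaf2.

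Levels of different genes were compared per kb of transcript, with lengths from GENCODE M21 for 93 members. Complex V genes stood highest, with a median over genes of 97.2 CPM per kb in control libraries, followed by complex IV at 69.9, complex III at 66.1, complex I at 45.3, complex II at 34.4 and the complex I assembly factors at 9.78 CPM per kb. The member of highest level was Atp5b, the catalytic beta subunit of the ATP synthase head, at 487 ± 7.26 CPM per kb (control, SD, n = 3). Within complexes, levels per kb ran from 14.6 ± 0.503 (Ndufs4) to 105 ± 3.62 (Ndufb2) in complex I and from 23.6 ± 1.01 (Sdhc) to 143 ± 3.74 (Sdha) in complex II. They ran from 40.6 ± 1.51 (Uqcrfs1) to 128 ± 4.56 (Uqcrq) in complex III and from 49.3 ± 1.11 (Atp5j2) to Atp5b in complex V. Complex IV had the widest range, because it held the tissue-restricted forms described further on. Those with counts stood at 0.686 (Ndufa4l2) to 15.0 (Cox4i2) CPM per kb in control libraries and lowered the complex IV median of 69.9. Ndufa4 stood highest in complex IV at 271 ± 24.7 CPM per kb.

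**Figure D2:**
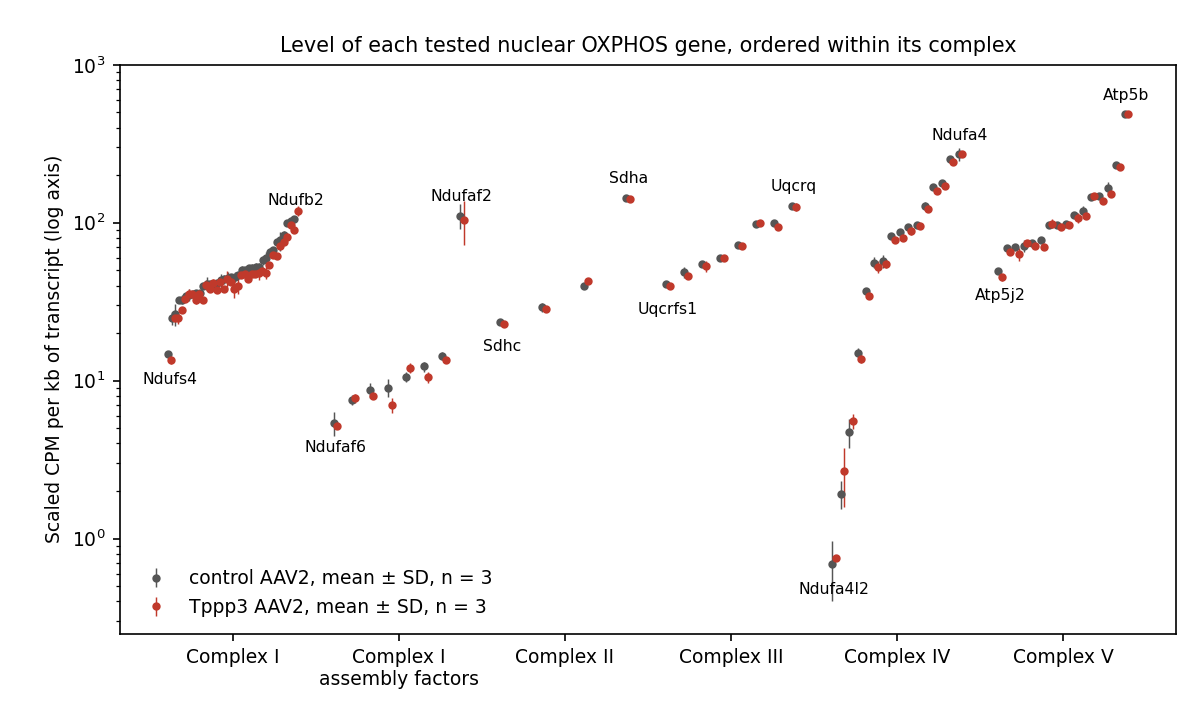
Level of each tested member with a known transcript length (vertical axis, scaled CPM per kb, log axis), ordered by level within its complex. Points are means of 3 libraries and bars are SDs, in grey for control and red for Tppp3. The 2 groups nearly coincide for most genes, Atp5b stands highest, and 4 tissue-restricted forms form the low tail of complex IV.

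Complex I genes were mostly slightly lower in the Tppp3 libraries. Of its 37 tested genes, 27 were negative (median log2 fold change -0.087) and 0 were called. Its Tppp3 libraries all lay below the control libraries for 11 genes (29.7%) and above for 1 (2.7%), where 7.02% and 6.92% of all tested genes did so, and the share below was 29.4% in complex V and 25% each in complex IV and among the complex I assembly factors. Summed over the complex, control libraries held 1759, 1729 and 1779 CPM and Tppp3 libraries 1667, 1673 and 1688 CPM, a mean difference of -4.52% with no overlap. The 7 core subunits, which carry the flavin and iron-sulfur centres, had a median of -0.087 and the 30 tested accessory subunits one of -0.089.

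The complex I member of smallest p was Ndufb8, an accessory subunit of the membrane arm whose protein is often used as a marker of assembled complex I. It was at 67.3, 68.8 and 72.7 CPM in control 1, 2 and 3 and at 61.8, 59.6 and 62.0 CPM in Tppp3 1, 2 and 3. All Tppp3 values were the lower, by a log2 fold change of -0.19 (95% interval -0.31 to -0.061, edgeR adjusted p = 0.639). Ndufa7, an accessory subunit of the matrix arm, was at 31.4, 28.4 and 32.0 CPM in control and 27.9, 23.9 and 24.4 CPM in Tppp3 libraries. Its groups also did not overlap, although control 2 and Tppp3 1 nearly met (log2 fold change -0.27, edgeR adjusted p = 0.648). Ndufb4, another membrane-arm accessory subunit, was at 30.1, 31.2 and 32.9 CPM against 27.4, 26.6 and 27.5 CPM (log2 fold change -0.21, edgeR adjusted p = 0.648).

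Ndufb2, a small accessory subunit of the membrane arm, was the complex I gene whose Tppp3 libraries were all higher. It was at 48.4, 49.0 and 45.9 CPM in control and 53.9, 50.4 and 58.1 CPM in Tppp3 libraries (log2 fold change 0.18, edgeR adjusted p = 0.653). Ndufv1, a core subunit that binds NADH and is among the complex I members of highest CPM, was at 126 ± 2.04 and 119 ± 5.82 CPM (SD, n = 3), with Tppp3 3 (125.1 CPM) above control 2 (123.8 CPM). Ndufb11b, a copy of the accessory subunit gene Ndufb11, had too few counts to be tested.

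The assembly factors of complex I build its modules and do not remain in the finished enzyme. Of 8, 6 were negative (median log2 fold change -0.082) and 0 were called. All Tppp3 libraries lay below all control libraries for 2 and above for 1, where 7.02% and 6.92% of all tested genes did so. Without Tppp3 2 the median was -0.042. Ndufaf8, a factor for the assembly factor Ndufaf5, was at 6.63, 6.39 and 8.13 CPM in control and 5.49, 4.83 and 6.03 CPM in Tppp3 libraries. Its log2 fold change of -0.37 had a 95% interval from -0.74 to 0.0070 (edgeR adjusted p = 0.693). Ndufaf3, an early assembly factor, stood at 18.3 ± 1.33 against 15.7 ± 1.26 CPM (SD, n = 3, log2 fold change -0.22, edgeR adjusted p = 0.71). Ndufaf7, a methyltransferase that acts during assembly, went the other way, at 17.2, 18.2 and 19.8 CPM against 20.6, 19.8 and 22.9 CPM (log2 fold change 0.20, edgeR adjusted p = 0.717). Ndufaf4, another assembly factor, was at 27.3 ± 1.91 and 28.01 ± 1.78 CPM.

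Ndufaf2, a late assembly factor of the NADH-oxidising module, stood apart from the other assembly factors in level and in spread. Its level per kb was 111 ± 19.9 CPM in control libraries, beside 14.3 ± 0.775 for Ndufaf5, the next of the 8. By library it was at 90.3, 69.9 and 64.8 CPM in control and 87.4, 46.5 and 78.7 CPM in Tppp3 libraries, a within-group coefficient of variation of 24.7%. Control 1, Tppp3 1 and Tppp3 3 were the highest, and the same 3 libraries were highest in the summed level of 11 pigment epithelium markers, at 214, 229 and 217 CPM against 46.7 to 59.5 CPM in the other 3. All 11 of those markers had counts, with Rpe65 between 1.23 and 19.4 CPM. The summed level of 13 rod markers was also highest in control 1, Tppp3 1 and Tppp3 3 (70209, 65082 and 64782 CPM). It was 54158 to 63211 CPM in the other libraries. The part of either cell type in the spread of Ndufaf2 was not tested. The log2 fold change of Ndufaf2 was -0.082 ± 0.30 (SE), and it was 0.068 without control 1 and 0.15 without Tppp3 2.

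Complex II, succinate dehydrogenase, is encoded by nuclear genes alone and also works in the citric acid cycle. Its summed level was 572 ± 10.2 CPM in control and 568 ± 11.5 CPM in Tppp3 libraries (SD, n = 3), with overlapping groups and a difference of -0.55%. Sdhb, the iron-sulfur subunit, was at 45.3, 44.8 and 45.8 CPM in control and 49.6, 48.8 and 49.0 CPM in Tppp3 libraries. These groups were tight and separate, but the log2 fold change of 0.12 (95% interval -0.012 to 0.24) was not called (edgeR adjusted p = 0.728). Sdha, the flavoprotein that oxidises succinate, was at 424, 403 and 418 CPM against 424, 400 and 413 CPM, and the membrane anchor Sdhc at 74.9 ± 3.198 against 72.4 ± 0.582 CPM. The median log2 fold change of the 4 genes was -0.028, with 3 negative, and it was -0.0079 without control 1 and -0.013 without control 3.

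Complex III showed the smallest per-gene differences among the proton-pumping complexes in this fit, and differences between complexes were not tested. Of 8 genes, 6 were negative with a median log2 fold change of -0.033. Groups separated for 0 in either direction, beside 7.02% (lower) and 6.92% (higher) of all tested genes. The median was -0.052 without Tppp3 1, -0.050 without control 2, -0.019 without Tppp3 2 and 0.024 after correction for GC content and length. Summed levels were 490, 489 and 498 CPM in control and 489, 479 and 486 CPM in Tppp3 libraries, which separated by less than 1 CPM. The core proteins Uqcrc1 and Uqcrc2 were at 120 ± 2.19 and 113 ± 2.84 CPM in control and at 118 ± 3.36 and 114 ± 1.49 CPM in Tppp3 libraries. Uqcrh, the hinge protein that contacts cytochrome c1, had the smallest p (log2 fold change -0.069, edgeR adjusted p = 0.85). The small subunit Uqcr11 was at 21.6 ± 1.82 and 20.4 ± 0.47 CPM, and Uqcrfs1, the Rieske iron-sulfur protein that transfers electrons, at 55.4 ± 2.06 and 53.9 ± 1.44 CPM (SD, n = 3).

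In complex IV, cytochrome c oxidase, 12 of 16 tested genes were negative with a median log2 fold change of -0.064. All Tppp3 libraries lay below all control libraries for 4 genes and above for 0, where 7.02% and 6.92% of all tested genes did so. The median was -0.041 without Tppp3 3 and 0.016 after correction for GC content and length. Summed levels were 1014, 962 and 987 CPM in control and 961, 946 and 930 CPM in Tppp3 libraries, a difference of -4.24%, with control 2 and Tppp3 1 almost equal. Cox7a2l, the supercomplex factor, was at 94.2, 95.5 and 91.9 CPM against 86.0, 87.0 and 87.2 CPM. Its Tppp3 values were all the lower (log2 fold change -0.11, 95% interval -0.22 to -0.0077, edgeR adjusted p = 0.674). Among the common forms, Cox6a1 was at 96.8 ± 2.59 and 91.3 ± 1.599 CPM and Cox6b1 at 51.1 ± 0.339 and 48.0 ± 1.92 CPM (SD, n = 3). Cox8a was at 97.6 ± 1.84 and 93.5 ± 3.90 CPM. Each was without overlap, although Cox8a nearly met, at 96.07 CPM in control 2 and 96.03 CPM in Tppp3 1. Cox4i1, the common form of the regulatory subunit 4, was at 189 ± 6.74 and 181 ± 5.61 CPM, Cox7b at 37.0 ± 1.38 and 34.4 ± 1.73 CPM, and Ndufa4 at 123 ± 11.1 and 124 ± 1.85 CPM, all with overlap.

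Complex V had 13 of 17 tested genes negative, with a median log2 fold change of -0.071. Tppp3 libraries all lay below all control libraries for 5 genes and above for 0, where 7.02% and 6.92% of all tested genes did so. The summed level was 2515 ± 40.4 against 2458 ± 36.9 CPM (SD, n = 3) with overlapping groups. The median was -0.033 without Tppp3 2 and -0.0052 after correction for GC content and length. Among the 5 genes that lay below were 3 of the 4 tested stalk subunits and 0 of the 5 head subunits, beside 7.02% of all tested genes. Atp5pb, the b subunit of the peripheral stalk, was at 126.2, 120.0 and 127.0 CPM in control and 113.5, 115.3 and 109.3 CPM in Tppp3 libraries (log2 fold change -0.14, edgeR adjusted p = 0.648). The gene listed as Atp5o_2, a numbered copy of the symbol of the stalk subunit that confers oligomycin sensitivity, was at 66.1, 69.1 and 70.7 against 61.2, 62.1 and 65.2 CPM (log2 fold change -0.13, edgeR adjusted p = 0.688), and Atp5o_1 had 0 counts. Atp5j2, the membrane subunit f, was at 47.1 ± 1.06 and 43.0 ± 2.02 CPM (edgeR adjusted p = 0.717).

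Atp5b and Atp5a1 were the members of highest CPM. Atp5b was at 938, 917 and 944 CPM in control and 945, 922 and 954 CPM in Tppp3 libraries, and its log2 fold change of 0.011 had a 95% interval from -0.097 to 0.12. Atp5a1, the alpha subunit that alternates with it in the head, was at 577 ± 10.7 and 560 ± 24.8 CPM (SD, n = 3), with a log2 fold change of -0.042 that was -0.082 without Tppp3 1 and -0.015 without Tppp3 2. Atp5g1, Atp5g2 and Atp5g3 encode the same mature subunit c of the rotating ring from 3 genes. Per kb they made up 23.6 ± 1.26, 40.5 ± 1.81 and 35.8 ± 0.551% of the subunit c level in control and 24.0 ± 0.906, 38.5 ± 1.05 and 37.5 ± 1.05% in Tppp3 libraries. The share of Atp5g3 lay higher in every Tppp3 library and that of Atp5g2 lower, both by a narrow margin. For Atp5g3 it was 36.3% at least in Tppp3 against 36.2% at most in control. For Atp5g2 it was 39.2% at most in Tppp3 against 39.3% at least in control.

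For complex IV the common form of each subunit predominated in both groups. Cox4i2, a form known from lung and induced by low oxygen, made up 5.60 ± 0.402% of the summed Cox4 level per kb in control and 5.36 ± 0.333% in Tppp3 libraries (SD, n = 3). Its level was 11.8, 10.5 and 10.5 CPM against 9.55, 10.6 and 9.78 CPM, with overlapping groups. Cox6b2, known from testis, had 32, 49 and 22 counts against 61, 60 and 71 and made up 5.39 ± 1.08 and 6.67 ± 0.900% of the Cox6b level. Cox7a1, a form of heart and skeletal muscle, had 7, 15 and 8 counts against 18, 34 and 15 and made up 3.28 ± 0.747 and 4.65 ± 1.94% of the Cox7a level, beside Cox7a2 at 37.6 ± 3.34 and 36.3 ± 2.04 CPM. The log2 fold change of Cox7a1, 0.46, was the highest of all members, but its 95% interval ran from -0.48 to 1.401 (edgeR adjusted p = 0.851). Tppp3 2 held 34 of its counts, and without that library the value was 0.084.

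The other restricted forms were at the edge of detection. Cox6a2, the striated muscle form, had 5, 14 and 2 counts in control and 8, 8 and 12 in Tppp3 libraries, under 1% of the Cox6a level in each. Cox8b, also a muscle form, had 13, 0 and 1 against 16, 9 and 5 counts, so that 1 control library held nearly all of its group's counts. Summed over 10 striated muscle markers, levels were 6.36, 4.55 and 4.25 CPM in control and 6.55, 5.55 and 6.36 CPM in Tppp3 libraries. Control 1 was again the highest of its group, but the Tppp3 sums did not follow the order of the Cox8b counts. The sum of 6 heart muscle markers went the other way. It was lowest of its group in control 1 (4.07 CPM) and in Tppp3 1 (3.56 CPM). The part of either list in Cox8b was not tested. Ndufa4l2, a paralog of Ndufa4 induced by low oxygen, had 10, 11 and 4 against 14, 15 and 15 counts, 0.250 ± 0.0910 and 0.274 ± 0.00619% of the Ndufa4 level. Cox7b2 and Cox8c, both known from testis, had 0 counts in all 6 libraries, which allows 0.137 to 0.274 CPM per library at a limit of 3 counts, a limit that covers counting error only. Sperm line markers were at 0 to 0.53 CPM in sum, and 2 of the 6 were at 0 in every library.

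**Figure D3:**
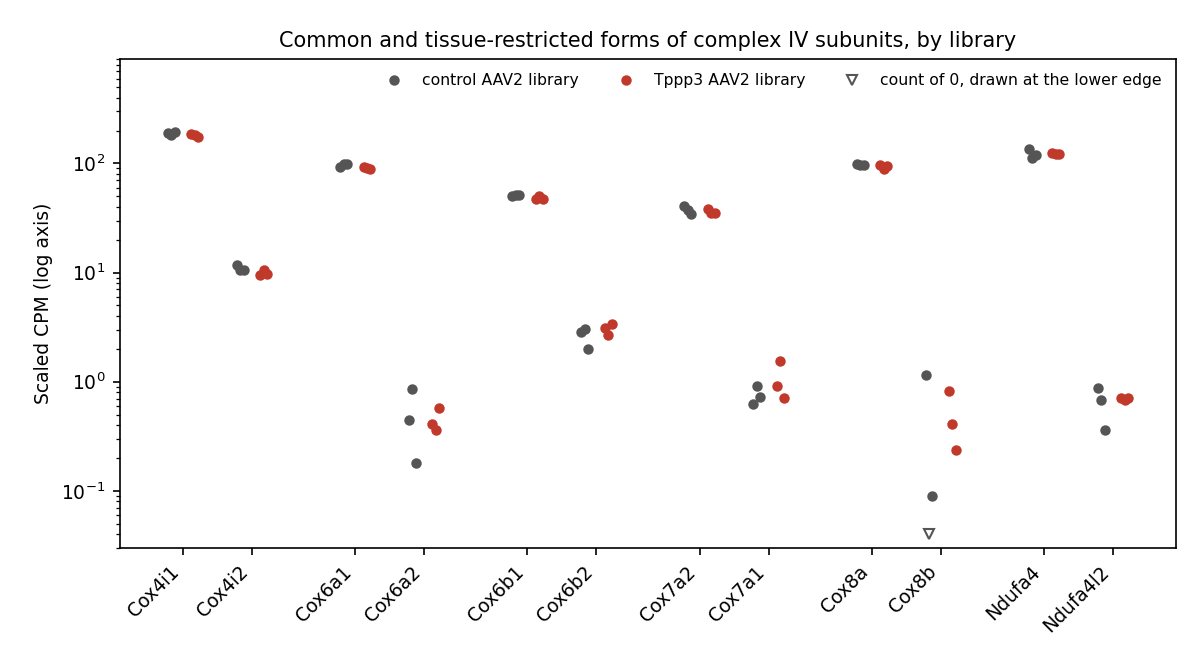
Level of the common and tissue-restricted forms of complex IV subunits (vertical axis, scaled CPM, log axis), with 1 point per library, grey for control and red for Tppp3. The open triangle is a control library with 0 counts of Cox8b. Each common form lies more than 10 times above its restricted partner, and the groups overlap for every restricted form shown.

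The kit does not mark strand, so reads of overlapping genes cannot be told apart. In the RefSeq gene table (GRCm38.p6) 16 members overlapped another gene with counts here, and for 7 of them that gene had the higher mean count. Among the restricted forms, Cox4i2 (mean 175 counts) overlapped Bcl2l1 (1206) and Ndufa4l2 (11.5) overlapped Shmt2 (713). Atp5j, a stalk subunit, overlapped Gabpa, which is named among the regulators.

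Other genes of the pathway held 0 calls in each list. Of 40 assembly factors outside the member rule, 31 were negative with a median log2 fold change of -0.082. Their median transcript length was 1746 bases. With the linear correction for GC content and length their median was -0.070, with 28 of 40 negative. The one of smallest p was Uqcc3, needed to assemble complex III, at 41.8, 40.0 and 40.8 CPM in control and 36.5, 35.1 and 32.0 CPM in Tppp3 libraries. Its groups did not overlap (log2 fold change -0.24, edgeR adjusted p = 0.639). Of 8 electron and nucleotide carriers, 6 were negative with a median of -0.017, led in p by Etfb of the electron transfer flavoprotein (log2 fold change -0.18, edgeR adjusted p = 0.76). Citric acid cycle genes were split, with 7 of 16 negative and a median of 0.014, and Idh3g, a subunit of isocitrate dehydrogenase, at -0.11 (edgeR adjusted p = 0.74). Among 13 regulators of mitochondrial gene expression 2 were negative, with a median of 0.047, and Gabpa, the DNA-binding subunit of GABP, stood at 0.15 (edgeR adjusted p = 0.692).

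The mitochondrially encoded partners of these complexes were split in direction. Of 13 genes, 6 were negative with a median log2 fold change of 0.0070. Groups separated for 0, beside 7.02% (lower) and 6.92% (higher) of all tested genes. The summed level of the 13 genes was 30268 ± 1037 CPM in control and 30320 ± 1679 CPM in Tppp3 libraries (SD, n = 3). Their 13 transcripts together thus outweighed the 96 nuclear members. The gene of smallest p was mt-Nd4l of complex I, at 309 ± 2.79 and 298 ± 26.5 CPM (log2 fold change -0.055, edgeR adjusted p = 0.888).

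Seen by library, the median over all tested members separated the groups, while those of complexes II and III and of the mitochondrial genome did not. The median deviation of the tested members from the mean of both groups, on the log2 scale, was 0.045, 0.015 and 0.046 in control 1, 2 and 3 and -0.018, -0.041 and -0.032 in Tppp3 1, 2 and 3. Complex I gave 0.045, 0.020 and 0.063 against -0.038, -0.049 and -0.038. Complex III gave 0.013, -0.0025 and 0.037 against 0.0023, -0.029 and -0.016, and complex II stayed between -0.019 and 0.0077 in all 6 libraries. The mitochondrial genome gave 0.058, -0.035 and -0.0093 against -0.027, -0.084 and 0.099, with the extremes both in the Tppp3 group. Rod markers, all 13 of which were negative (median log2 fold change -0.067), gave 0.12, 0.017 and -0.046 against 0.051, -0.23 and 0.042, with overlapping groups and a summed level of 61992 to 70209 CPM in control and 54158 to 65082 CPM in Tppp3 libraries. Muller glia markers were positive in 7 of 7 (median 0.15), with summed levels of 4264 to 5094 against 4721 to 5586 CPM. Amacrine cell markers were positive in 6 of 8 (median 0.055), and their summed levels, 1212, 1186 and 1167 CPM in control and 1261, 1218 and 1252 CPM in Tppp3 libraries, did not overlap. Bipolar cell markers were positive in 7 of 9 (median 0.099), with overlapping summed levels. The part of cell composition in the members' direction was not tested.

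**Figure D4:**
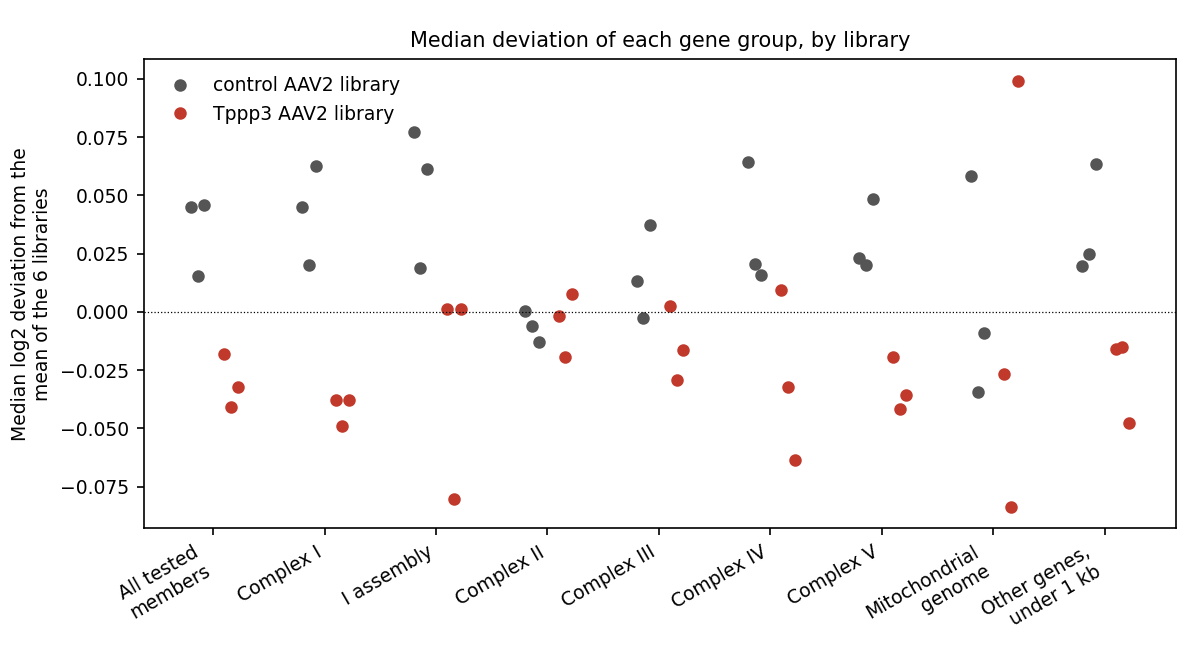
Median log2 deviation of each gene group from the mean of both groups (vertical axis) for the 3 control (grey) and 3 Tppp3 (red) libraries. All tested members, complex I and complex V lie above 0 in every control library and below 0 in every Tppp3 library, as do other genes with transcripts under 1 kb. Complexes II and III and the mitochondrial genome overlap between groups.

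Other genes with short transcripts also sat lower in the Tppp3 libraries. Members had a median transcript length of 745 bases, against 2891 bases over all tested genes. With a boundary of 1 kb, chosen after the data were seen, the 57 shorter members had a median log2 fold change of -0.078 (77.2% negative) and the 32 longer members one of -0.040 (22 negative). The 913 other tested genes under 1 kb had a median of -0.064 with 67.5% negative, against 0.0070 and 47.7% for the 13625 longer ones. All Tppp3 libraries lay below all control libraries for 26.3% of the shorter members and for 13.1% of the other short genes, and above for 1.75% and 3.29%. By library, other short genes deviated by 0.020, 0.025 and 0.063 in control and by -0.016, -0.015 and -0.048 in Tppp3 libraries, the same division as among the members. Over 10 equal groups of the other genes by length, the median log2 fold change ran from -0.063 at a median length of 908.5 bases to 0.052 at 7827.5 bases and increased at every step. The part of transcript length in the members' direction was examined only by the linear correction.

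After the linear correction for GC content and length, the median was -0.039 for complex I, -0.053 for its assembly factors and -0.020 for complex II, and it was positive for complexes III (0.024) and IV (0.016). For the 57 members under 1 kb it was 7.0e-04, with 28 negative. For the 32 members of 1 kb or more it was -0.028, with 22 negative. Ndufb8 stood at -0.11 after the correction, Ndufa7 at -0.18 and Cox7a2l at -0.081. Ndufb2 stood at 0.27 in place of 0.18, and Sdhb at 0.17 in place of 0.12. Other named members changed sign. Cox6a1 (0.014), Cox8a (0.037), Cox4i1 (0.019), Cox7a2 (0.0092), Uqcr11 (0.021), Uqcrc1 (0.027) and Atp5g1 (0.034) were positive after the correction and negative before it, and Ndufaf4 (-0.027) and Uqcrc2 (-0.0078) went the other way. The correction gives no p.

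**Figure D5:**
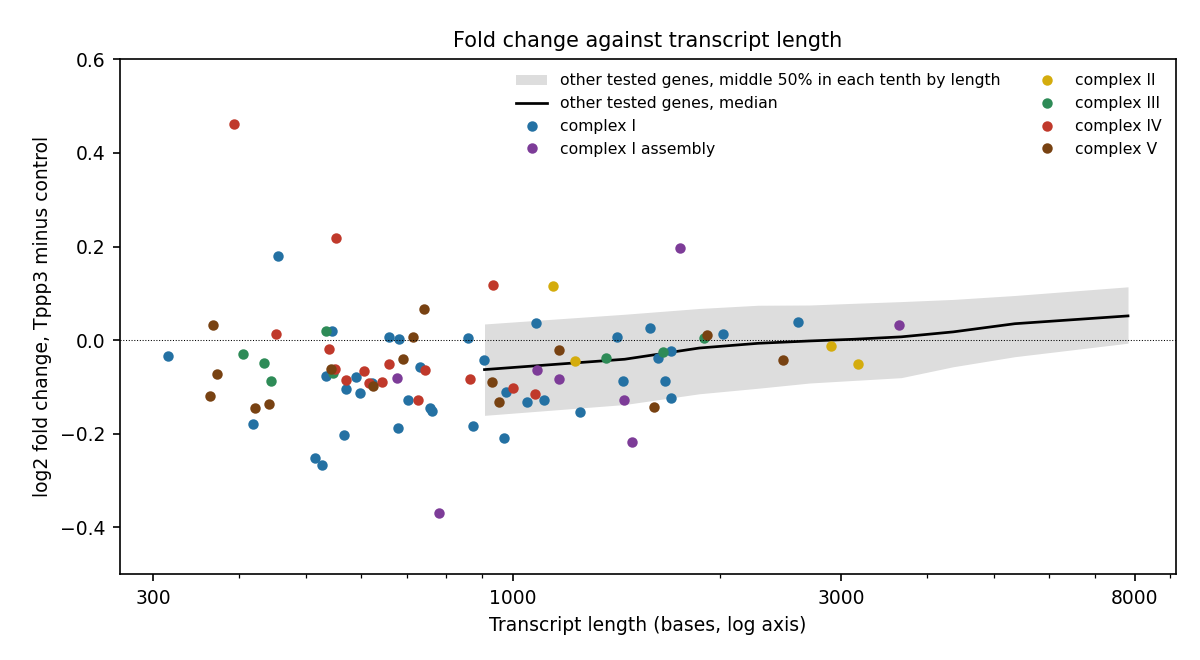
Log2 fold change (vertical axis, Tppp3 minus control) against transcript length in bases (horizontal log axis) for tested members, coloured by complex. The black line is the median and the grey band the middle 50% of the other tested genes in 10 equal groups by length. The line climbs from -0.063 to 0.052, and most members lie at its short end or beyond it.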

How the data were processed

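Counts per gene symbol for poly(A)-selected retinal RNA, whole numbers that were not normalized, were deposited by the authors, per the file headers, on build GRCm39 per the submitters' processing notes. Per the labels' protocols a spike-in mix was added and the kit does not mark strand. The aligner, the counter and its use of strand, and the annotation were not given in the sources used here. The labels name 4 control and 3 Tppp3 samples, whereas the treatment protocol gives the reverse numbers. The sample labels were followed. The fourth control matched no column and is not analysed here, 1 column, named as the fourth Tppp3 library but matching no listed sample, was not used, and fits planned for 7 libraries were made on 6.

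Libraries were scaled by TMM, filtered by edgeR's expression filter (14750 genes kept) and tested with edgeR's quasi-likelihood test with robust fits, two-sided, with Benjamini-Hochberg adjustment over all tested genes at 0.05 (biological coefficient of variation 11.9%). Transcript GC content and length came from GENCODE M21 (GRCm38), matched by symbol, as the lower median of principal transcripts. Promoters came from RefSeq (GRCm38.p6). Fits were made with edgeR 4.0.16, DESeq2 1.42.0 and limma 3.58.1 in R 4.3.3, and plots with matplotlib 3.10.9 in Python 3.11.15. The fit was tested on simulated counts. Chi-square statistics per gene of 4.10 to 13.9 between libraries of a group showed no library deposited under more than 1 name within a group. Libraries of different groups, and the unused column, were not compared in this way.

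Members and lists were chosen with earlier results of these data known. Genes were named by rule: the 3 members of smallest p per complex (2 for complex II), the 2 of highest CPM, every tissue isoform with counts and the gene of smallest p in each pathway list. One gene that this rule takes is not reported here. Members named beyond it were chosen after their values were seen. Alternatives were DESeq2's size factors and test, voom with quality weights, no filter, a mean of 1 CPM, each library left out, the replicate number as a block, thinning to equal depth and the correction for GC content and length.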

Additional observations from a re-analysis of the deposited data

How the results depend on the processing

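The count of members called was 0 in every alternative that gives a p. In each of those the members' median log2 fold change was negative, with 66 (thinned) to 74 (without control 2) members negative. With the correction for GC content and length, which gives no p, 50 of 89 members were negative. With the replicate block and that correction, 49 of 89 were. At an unadjusted p of 0.05 the first fit had 10 members, DESeq2 had 3 and voom 11. Genes called lower, 2 in the first fit, were 6 without the low-count filter, 12 in DESeq2, 0 in voom, 1 after thinning, 1 with the replicate block and 0 to 1 with a library left out. Genes called higher, 0 in the first fit, were 2 in DESeq2 and 0 to 2 with a library left out, the 2 coming without control 1. With a library left out, medians ran from -0.086 to -0.049 for all members, from -0.11 to -0.042 for complex I assembly factors, from -0.034 to -0.0079 for complex II, from -0.052 to -0.019 for complex III and from -0.11 to -0.033 for complex V. The complex V median was -0.051 after thinning. With the correction for GC content and length, without and with the replicate block, medians were -0.019 and -0.016 for all members, -0.039 and -0.040 for complex I, 0.024 and 0.025 for complex III, 0.016 and 0.017 for complex IV and -0.0052 and -0.0045 for complex V. The replicate numbers did not pair the samples (correlations of same-numbered libraries -0.029, 0.051 and -0.26), and with the block alone the members' median was -0.067. Among the named genes, signs changed within these ranges with a library left out: Ndufaf2 -0.27 to 0.15, Ndufaf4 -0.013 to 0.092, Sdha -0.036 to 0.010, Uqcrc2 -0.012 to 0.025, Ndufa4 -0.042 to 0.084, Atp5b -4.4e-04 to 0.025, Cox7a2 -0.11 to 0.0083, Ndufa4l2 -0.14 to 0.38, Atp5g3 -0.021 to 0.039 and mt-Nd4l -0.11 to 0.016. Of values printed without a change of sign, leaving out a library took Uqcrh from -0.069 to -0.034 (without control 3), Etfb from -0.18 to -0.11 (Tppp3 2) and Idh3g from -0.11 to -0.067 (Tppp3 3). Thinning gave 0.0027 for Uqcrc1 and 0.031 for Atp5g1. The cause of these changes was not tested. Each group held 3 libraries, every control library was the shallower, and the rarest forms rested on a few counts per library.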
